A study of Mus musculus with 6 samples.

Results

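The genes of prostaglandin synthesis, reception and breakdown were read in Ocy454 cells, a mouse osteocytic cell line, after exposure to parathyroid hormone (PTH) or to the salt-inducible kinase inhibitor YKL-05-093. The group holds 10 of the 39179 genes listed for the series, taken by symbol: Ptgs1, Ptgs2, Ptges, Ptges2, Ptges3, Ptgis, Ptger1, Ptger2, Ptger4 and Hpgd. RNA was sequenced from 6 libraries, 2 for each of 3 conditions. A single-cell subclone was grown to confluence at 33 °C and kept at 37 °C for 14 days. It was then exposed for 4 h to vehicle (PBS with 25 mM HCl), to 1 nM PTH 1-34, or to 0.5 µM YKL-05-093. The labels name 1 vehicle for both agents, while the study's methods give DMSO as the solvent of the compounds in cell culture, and whether the control libraries received DMSO is not stated. All libraries come from the same clone, and nothing in the sources used here says how the duplicate cultures were set up, so p-values measure only the spread between these libraries.

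Prostaglandins are made from arachidonic acid, which phospholipases free from membranes. The cyclooxygenases Ptgs1 (COX-1) and Ptgs2 (COX-2) turn it into prostaglandin H2, and terminal synthases turn that into prostaglandin E2, prostacyclin and other products, which signal through G protein-coupled receptors before Hpgd oxidises them. In bone, prostaglandin E2 is a known local signal of cells of the osteoblast lineage, and Ptgs2 is known as a gene that hormones, cytokines and mechanical load can induce. The comparisons ask whether the RNA of the enzymes and receptors differed between conditions after 4 h.

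The depth was 17505798 to 27983585 reads per library, the lowest and the highest both in vehicle. The vehicle libraries also lay further apart than the others, with a median absolute log2 difference over the tested genes of 0.33, against 0.11 between the PTH libraries and 0.10 between the YKL-05-093 libraries. Of 12 markers of osteoblasts and osteocytes, 9 averaged at least 0.5 RPKM (reads scaled to the length of the gene and to the reads of the library), Col1a1 and Pth1r among them, with the osteocyte genes Pdpn (108 RPKM on average), Phex (2.82) and Dmp1 (0.679). The osteocyte genes Sost, Fgf23 and Mepe reached no more than 0.136 RPKM in any library.

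Ptgs1 and Ptgs2 encode closely related enzymes of the same step. The F receptor gene Ptgfr was the gene of the wider pathway that passed the limits on both adjusted p and fold change. It did so in a comparison with vehicle, and some alternative settings lost this result. For these reasons the 250 bases before the start of each of these genes are shown. The sequences were taken from RefSeq (GRCm38.p6) and are written 5′ to 3′ on the gene's strand. GENCODE places the start of Ptgfr at 151837630, inside the bases shown, so part of them lie within the gene as placed there. Windows of 300 bases, 250 before and 50 after the start, were searched on both strands for the cAMP response element (CRE, TGACGTCA), its core TGACG, the E-box CACGTG, the C/EBP palindrome TTGCGCAA and the TATA motif TATAAA. Capitals mark a match.
Ptgs1, chr2:36230176-36230425, plus strand: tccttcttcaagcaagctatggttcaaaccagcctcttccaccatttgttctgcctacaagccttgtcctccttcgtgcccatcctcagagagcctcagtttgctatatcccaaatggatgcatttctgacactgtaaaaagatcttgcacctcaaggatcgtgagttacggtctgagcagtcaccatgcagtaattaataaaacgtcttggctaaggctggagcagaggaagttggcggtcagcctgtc
Ptgs2, chr1:150099781-150100030, plus strand: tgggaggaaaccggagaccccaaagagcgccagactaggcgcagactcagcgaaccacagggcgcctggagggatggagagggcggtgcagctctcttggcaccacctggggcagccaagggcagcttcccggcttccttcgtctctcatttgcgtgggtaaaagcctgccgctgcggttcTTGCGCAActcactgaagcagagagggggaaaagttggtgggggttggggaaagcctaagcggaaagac
Ptgfr, chr3:151837529-151837778, minus strand: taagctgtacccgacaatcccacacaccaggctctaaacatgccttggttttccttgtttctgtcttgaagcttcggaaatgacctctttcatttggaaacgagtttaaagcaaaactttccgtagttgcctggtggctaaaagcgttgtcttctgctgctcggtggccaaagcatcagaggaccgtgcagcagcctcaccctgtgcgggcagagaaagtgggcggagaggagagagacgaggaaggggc
Ptgs2 just after its start, chr1:150100035-150100064, plus strand: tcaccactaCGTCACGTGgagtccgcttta

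The Ptgs2 window held 3 of these motifs. The C/EBP palindrome lay 69 bases before the start, and 0.183% of the 32851 mouse windows of the same length hold it. The core of the CRE, on the reverse strand, began 14 bases after the start and ran into an E-box that began 17 bases after it, and these are found in 20.8% and 7.15% of windows. The full CRE, found in 1.79% of windows, was in none of the 9 windows searched, which covered 8 of the 10 genes and Ptgfr. Ptgs1 and Ptgfr held none of the 5 motifs. Among the others, Ptges2 held an E-box 77 bases before its start, Ptges3 the core of the CRE 12 bases after it, and Hpgd a TATA motif (13.6% of windows) 5 bases after it. A match is a run of letters and does not show that a factor binds there.

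The transcript levels of the 10 genes spanned a wide range. On the RPKM scale, which divides by gene length, Ptges3 had the highest mean over the 6 libraries, 78.4, above 97.0% of the 26214 genes with a read. It was followed by Ptges2 (11.5), Ptgis (10.3), Ptger1 (3.38), Ptgs1 (2.56), Hpgd (2.00), Ptgs2 (0.969), Ptger4 (0.697), Ptges (0.0688) and Ptger2 (0.00209). Neighbours in this order whose libraries overlapped were Ptges2 with Ptgis, Ptger1 with Ptgs1, Ptgs1 with Hpgd, and Ptgs2 with Ptger4, so their ranges do not separate them. Within libraries Ptgs1 was above Hpgd and Ptgs2 above Ptger4 in 6 of 6, Ptges2 above Ptgis in 5 of 6 and Ptger1 above Ptgs1 in 4 of 6. The plot of levels shows each library. Genes that reached 0.5 RPKM in 2 or more libraries were tested, and 8 of the 10 genes passed, all but Ptges and Ptger2.

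**Figure D1:**
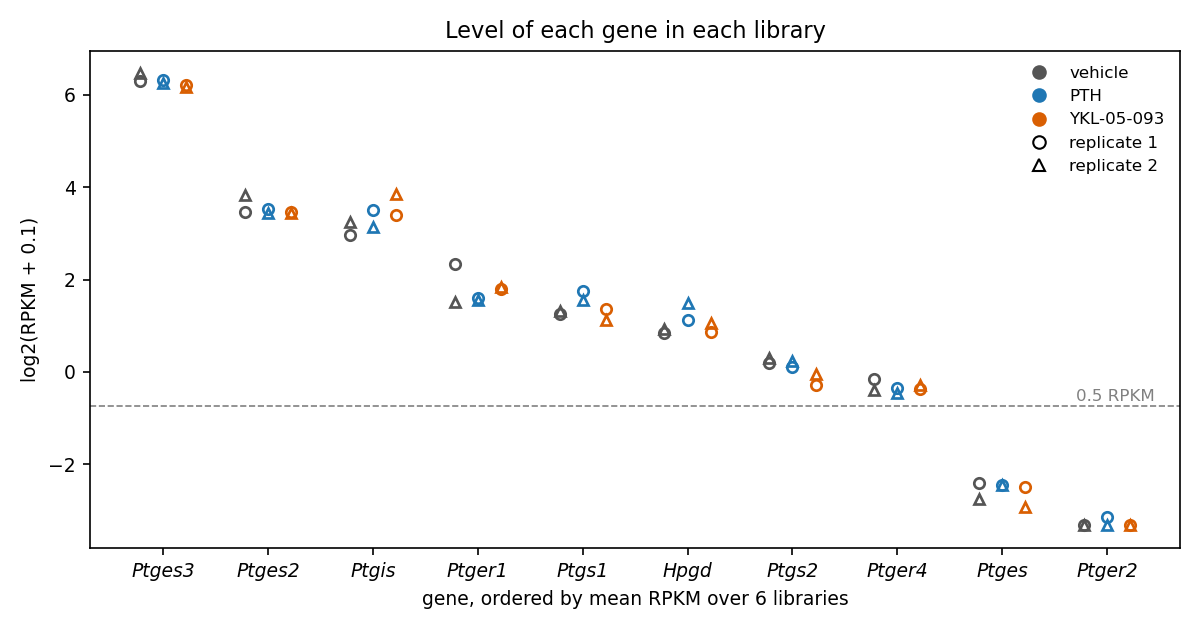
Level of the 10 genes on the log2(RPKM + 0.1) scale (vertical axis), ordered by mean RPKM, with 1 symbol per library, coloured by condition and shaped by replicate number, and a dashed line at 0.5 RPKM. Ptges and Ptger2 lie below the line in every library, and Ptges3 lies above all other genes in every library.

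None of the 8 tested genes was called in any comparison. A gene was called at a Benjamini-Hochberg adjusted p under 0.05 and more than 2-fold change in limma. For PTH against vehicle 0 of 8 were called, against 1.91% of all genes tested, and 0 of 8 had an unadjusted p under 0.05, against 1897 of 14261 genes. For YKL-05-093 against vehicle 0 of 8 were called, against 0.666% of all genes, with 1 unadjusted p under 0.05 (Ptgis), against 1236 of 14255 genes. For PTH against YKL-05-093 0 of 8 were called, against 1.21% of all genes, with 3 unadjusted p under 0.05 (Ptgs1, Ptgis and Ptger1), against 3178 of 14255 genes. At these shares fewer than 1 of 8 genes would be called in each comparison, so the counts do not set the group apart from other genes.

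The intervals say more than the absence of calls. The 95% interval of the fold change lay within 2-fold for 8 of 8 genes after PTH, where 76.1% of all tested genes had such an interval. It did so for 7 of 8 after YKL-05-093 (all genes 78.0%), and for 8 of 8 between the treatments (all genes 85.0%). The exception was Ptgis after YKL-05-093. Some other intervals ended close to the limit of 1 on the log2 scale. These ends were -0.96 for Ptger1 and 0.92 for Hpgd after PTH, and -0.92 for Ptgs2 after YKL-05-093. The log2(RPKM + 0.1) scale also understates changes of low genes. The median absolute log2 fold change of the 8 genes was 0.18 for PTH, 0.15 for YKL-05-093 and 0.26 between the treatments, beside 0.20, 0.18 and 0.12 over all tested genes. The libraries of the 2 groups did not overlap for 2 of 8 genes in the PTH comparison (43.1% of all genes), 4 of 8 in the YKL-05-093 comparison (37.8%) and 5 of 8 between the treatments (50%). The plot of changes gives the interval of each gene.

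**Figure D2:**
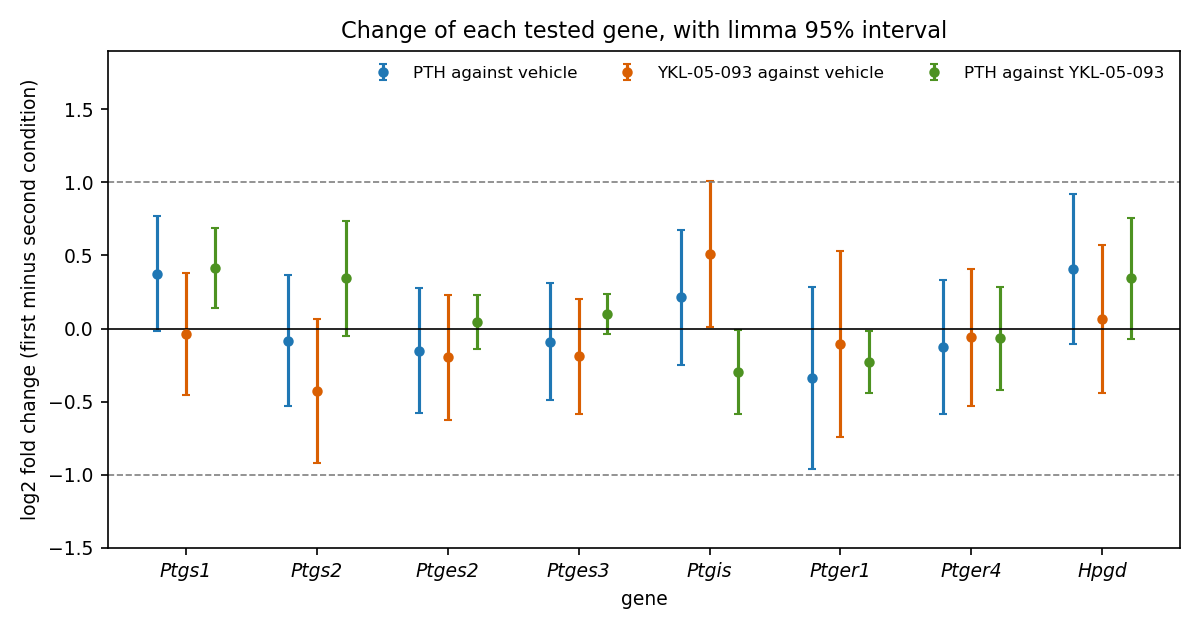
Log2 fold change of the 8 tested genes in the 3 comparisons (vertical axis, first minus second condition, on the log2(RPKM + 0.1) scale), with the 95% interval from limma as bars and dashed lines at 2-fold. The interval of Ptgis for YKL-05-093 against vehicle reaches 1.01 and is the one that crosses a dashed line.

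Ptgs2 encodes the inducible cyclooxygenase, and its transcript (chr1:150100031-150108227, plus strand) was low in every condition. It stood at 1.05 and 1.13 RPKM in the vehicle libraries, 0.974 and 1.08 in the PTH libraries, and 0.716 and 0.863 in the YKL-05-093 libraries, from 60 to 131 reads. The YKL-05-093 libraries were below the other 4, and the PTH and vehicle libraries overlapped. After PTH the log2 fold change was -0.08 (95% interval -0.53 to 0.37, limma adjusted p = 0.905), so the upper end is a 1.29-fold rise. After YKL-05-093 it was -0.43 (-0.92 to 0.06, limma adjusted p = 0.662), and PTH against YKL-05-093 gave 0.34 (-0.05 to 0.74, limma adjusted p = 0.304). A rise of Ptgs2 was not detected with either agent at 4 h, and the upper end of the interval for YKL-05-093 is 1.05-fold.

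Ptgs1, the cyclooxygenase that many cells express without a stimulus, was the more abundant of the pair in all 6 libraries (chr2:36230426-36252272, plus strand). Its values were 2.29 and 2.38 RPKM in vehicle, 3.28 and 2.86 in PTH, and 2.47 and 2.08 in YKL-05-093, from 156 to 275 reads. Both PTH libraries were above the other 4, and vehicle and YKL-05-093 overlapped. The log2 fold change was 0.38 for PTH (SE 0.17, limma adjusted p = 0.400), -0.04 for YKL-05-093 (SE 0.18, limma adjusted p = 0.976) and 0.41 for PTH against YKL-05-093 (SE 0.13, limma adjusted p = 0.0541). The last has the lowest adjusted p of the 8 genes, at 1.33-fold (1.10 to 1.61). It does not pass the threshold, and the adjusted p ran from 0.0181 to 0.458 over 15 alternative settings. The Ptgs1 to Ptgs2 ratio of RPKM was 2.18 and 2.10 in vehicle, 3.36 and 2.65 in PTH, and 3.46 and 2.41 in YKL-05-093. All 4 treated libraries had a higher ratio than both vehicle libraries, with Ptgs1 higher in the PTH libraries and Ptgs2 lower in the YKL-05-093 libraries, and neither of these differences from vehicle passed the test. An exact permutation test of 2 against 2 libraries cannot go below p = 0.333, and no model was fitted to the ratio.

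Of the prostaglandin E synthases, Ptges3 held most of the transcript on the RPKM scale. Ptges3 encodes the cytosolic enzyme, which is also known as the Hsp90 co-chaperone p23 (chr10:128058954-128077272, plus strand). It stood at 78.6 and 88.4 RPKM in vehicle, 80.2 and 76.6 in PTH, and 74.4 and 71.9 in YKL-05-093, and made up 86.2% to 87.7% of the summed RPKM of the 3 synthases. The log2 fold changes were -0.09 (-0.49 to 0.31, limma adjusted p = 0.881) for PTH and -0.19 (-0.58 to 0.21, limma adjusted p = 0.850) for YKL-05-093. Between the treatments it was 0.10 (-0.04 to 0.24), which bounds the difference to 1.18-fold. At 3419 to 6146 reads it had the smallest counting error of the group.

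Ptges2 encodes the membrane-associated synthase (chr2:32395896-32405772, plus strand). Its values were 10.9 and 14.2 RPKM in vehicle, 11.5 and 10.8 in PTH, and 10.9 and 10.8 in YKL-05-093. The PTH libraries overlapped those of vehicle, and the YKL-05-093 libraries lay just below them. The log2 fold changes were -0.15 (SE 0.18) for PTH, -0.20 (SE 0.18) for YKL-05-093 and 0.04 (-0.14 to 0.23) between the treatments, with limma adjusted p of 0.797, 0.854 and 0.839.

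Ptges encodes the microsomal synthase that is known as the inducible partner of COX-2 (chr2:30889471-30929863, minus strand). It had 7 and 6 reads in vehicle, 8 and 7 in PTH, and 7 and 3 in YKL-05-093, or 0.0324 to 0.0897 RPKM, and took no more than 0.10% of the summed RPKM of the 3 synthases. The rate of its reads after PTH was 1.29 times that in vehicle, with an exact 95% interval of 0.573 to 2.95, and 0.853 times after YKL-05-093 (0.335 to 2.11). These intervals cover counting error only. Both intervals allow a 2-fold rise, and that for YKL-05-093 also a 2-fold fall, so changes of this size were not detectable at this depth.

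Ptgis encodes prostacyclin synthase (chr2:167191805-167240604, minus strand) and had the largest log2 fold change of the 8 genes. It stood at 7.73 and 9.47 RPKM in vehicle, 11.3 and 8.70 in PTH, and 10.4 and 14.4 in YKL-05-093, from 346 to 765 reads. Both YKL-05-093 libraries were above both vehicle libraries, while the PTH libraries overlapped each of the other groups. The libraries of each treatment also lay apart from each other, by 0.38 on the log2 scale in PTH and 0.47 in YKL-05-093, and 11.5% and 10.5% of the tested genes were at least as far apart. YKL-05-093 against vehicle gave a log2 fold change of 0.51 (0.01 to 1.01, limma adjusted p = 0.556), or 0.28 without YKL-05-093 replicate 2 and 0.75 without replicate 1. After PTH it was 0.21 (-0.25 to 0.67, limma adjusted p = 0.736), and PTH against YKL-05-093 gave -0.30 (-0.59 to -0.01, limma adjusted p = 0.205). Ptgis exceeded Ptges2 in 1 of 6 libraries, YKL-05-093 replicate 2.

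**Figure D3:**
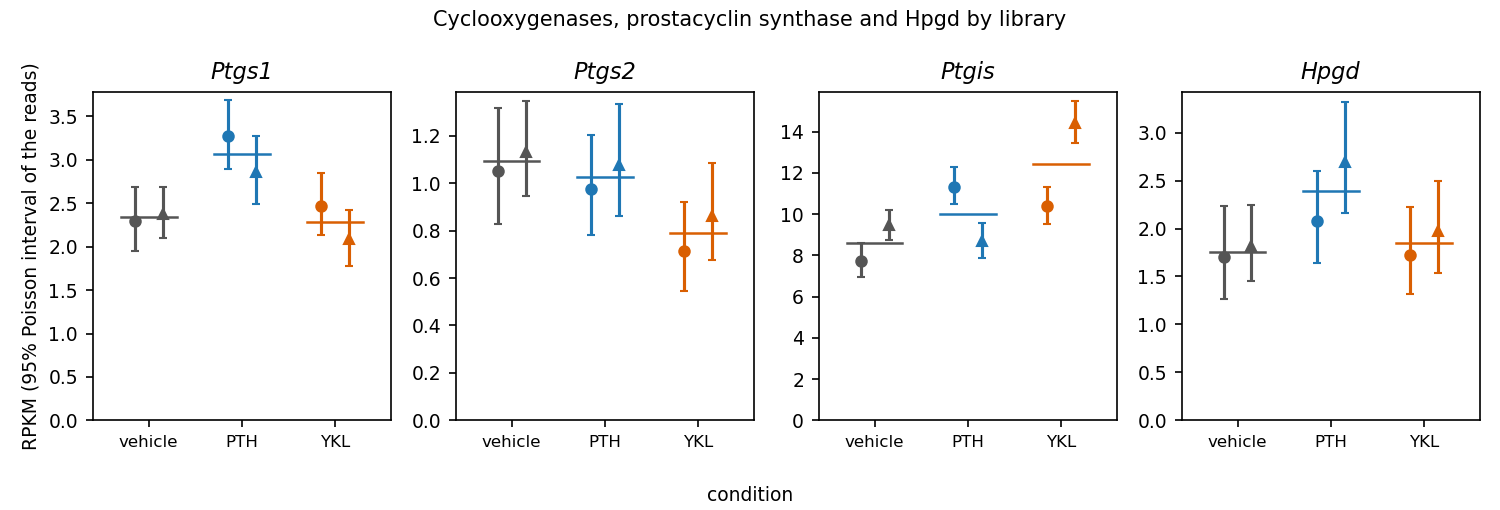
RPKM of Ptgs1, Ptgs2, Ptgis and Hpgd (vertical axes, each from 0) by condition, with a circle for replicate 1, a triangle for replicate 2, a 95% Poisson interval of the reads as bars and a line at the mean. Both PTH libraries are the highest for Ptgs1 and Hpgd, both YKL-05-093 libraries the lowest for Ptgs2, and the Ptgis libraries of a treatment differ by more than their counting intervals.

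Hpgd encodes 15-hydroxyprostaglandin dehydrogenase, the enzyme that starts the inactivation of prostaglandin E2 (chr8:56294585-56321043, plus strand). Its values were 1.7 and 1.82 RPKM in vehicle, 2.08 and 2.69 in PTH, and 1.73 and 1.97 in YKL-05-093, from 51 to 88 reads. The PTH libraries were the highest 2, and vehicle overlapped YKL-05-093. The log2 fold change after PTH was 0.41 (SE 0.22; -0.10 to 0.92, limma adjusted p = 0.507), 0.07 after YKL-05-093 (-0.44 to 0.57, limma adjusted p = 0.965), and 0.34 between the treatments (-0.07 to 0.76, limma adjusted p = 0.335). The counting intervals of both PTH libraries overlapped those of both vehicle libraries. For PTH replicate 2 the lower end was 2.16 RPKM, beside upper ends of 2.24 in both vehicle libraries. Overlap of these intervals is not a test of the difference.

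Prostaglandin E2 acts through the EP receptors, and 3 of their genes belong to the group. Ptger4 encodes EP4, which couples to Gs and raises cAMP, as the PTH receptor does (chr15:5206661-5244187, minus strand). It stood at 0.800 and 0.667 RPKM in vehicle, 0.690 and 0.631 in PTH, and 0.668 and 0.726 in YKL-05-093, from 80 to 124 reads. The 3 conditions overlapped throughout. The log2 fold changes were -0.13 (-0.59 to 0.33), -0.06 (-0.53 to 0.41) and, between the treatments, -0.07 (-0.42 to 0.29), with limma adjusted p of 0.843, 0.965 and 0.879. Ptger4 shares 82 exonic bases (1.23%) with Ttc33 on the opposite strand, which was expressed at 13.7 to 18.0 RPKM.

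Ptger2 encodes EP2, the other EP receptor that raises cAMP, and was at or under the floor of 3 reads in every library (chr14:44988195-45003820, plus strand). It had 0 reads in 5 libraries and 1 read in PTH replicate 1. That floor, the limit taken here for a count of 0, equals 0.0291 to 0.0465 RPKM, depending on the library, and lies below every value of Ptger4. No comparison between conditions was possible for it.

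Ptger1 encodes EP1, which is known for calcium signalling (chr8:83666678-83672753, plus strand). It was listed at 4.93 and 2.74 RPKM in vehicle, 2.95 and 2.84 in PTH, and 3.37 and 3.45 in YKL-05-093, from 271 to 432 reads. Vehicle replicate 1 was the highest of all libraries and vehicle replicate 2 the lowest, and their log2 difference of 0.82 was the widest of the 8 genes in any condition (9.33% of tested genes were at least as far apart in vehicle). The direction against vehicle turned on that pair. Where 1 library of a pair is left out, the spread comes from the other condition alone, and the lone library is assumed to vary like it. The log2 fold change after PTH was -0.34 (SE 0.27, limma adjusted p = 0.684), 0.08 without vehicle replicate 1 and -0.75 without vehicle replicate 2 (limma adjusted p = 0.0127). After YKL-05-093 it was -0.11 (limma adjusted p = 0.953), 0.31 without vehicle replicate 1 and -0.52 without vehicle replicate 2 (limma adjusted p = 0.0440). Over the 15 alternatives the adjusted p ran from 0.0127 and 0.0440, respectively, to 1. Without vehicle libraries, PTH against YKL-05-093 gave -0.23 (-0.44 to -0.02, limma adjusted p = 0.182), and the groups did not overlap.

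The libraries were made with a kit that keeps the strand, and whether the counting used it is not stated in the sources used here. The values of any gene that shares exonic bases with a gene on the opposite strand are therefore uncertain. Besides Ptger4 with Ttc33, this holds for Ptgs1 (3.81% of exonic bases), Ptgis (6.08%), Ptger2 (2.77% and 4.74%) and Ptgfr (4.85%). Ptger4 also shares 15.3% with the pseudogene Gm15937, which was at no more than 0.0391 RPKM. The partner of Ptgis was at 0.0313 to 0.204 RPKM, and those of Ptgs1 and Ptgfr have no value here. The plot of receptors shows Ptger1 and Ptger4 beside Ptgfr.

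**Figure D4:**
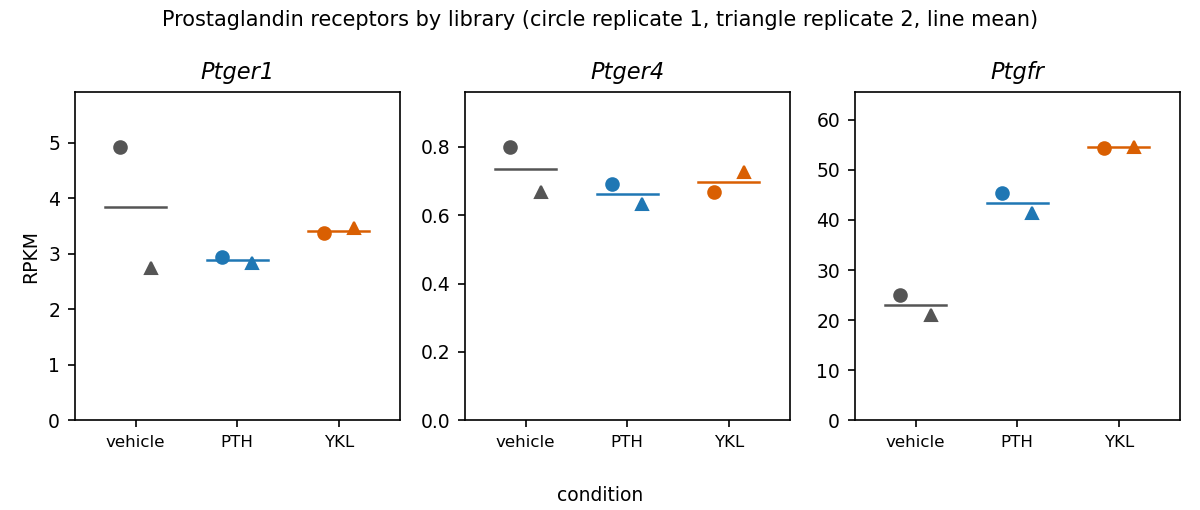
RPKM of Ptger1, Ptger4 and Ptgfr (vertical axes, each from 0) by condition, with a circle for replicate 1, a triangle for replicate 2 and a line at the mean. The Ptgfr libraries fall into 3 separate pairs, with vehicle lowest and YKL-05-093 highest, while those of Ptger1 and Ptger4 overlap vehicle in both treatments.

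The wider pathway was read in 35 other names, of which 32 had a row and 18 were tested. They cover the supply of arachidonate, other terminal synthases, other receptors, transport and breakdown, and modulators. Of the 18, 0 were called after PTH (1.91% of all tested genes), 1 after YKL-05-093 (0.666%) and 0 between the treatments (1.21%), and the called gene was Ptgfr. The median absolute log2 fold change of the 18 was 0.13, 0.15 and 0.12 in the 3 comparisons, beside 0.20, 0.18 and 0.12 over all tested genes. The gene with the highest mean of each role was Plaa, a phospholipase A2-activating protein (13.7 RPKM), Cbr1, a carbonyl reductase that acts on prostaglandin E2 (43.6), Ptgfr (40.2), Ptgr1, a reductase of prostaglandin breakdown products (36.0), and Anxa2, an annexin (234).

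Ptgfr encodes the receptor of prostaglandin F2α (chr3:151796502-151837630, minus strand). It stood at 24.9 and 21 RPKM in vehicle, 45.3 and 41.3 in PTH, and 54.3 and 54.6 in YKL-05-093, from 2157 to 5595 reads. The 3 pairs did not overlap. Ptgfr rose 2.37-fold (1.79 to 3.14) with YKL-05-093, by 1.25 on the log2 scale (SE 0.17, limma adjusted p = 0.0342). After PTH the log2 fold change was 0.92 (SE 0.18; 0.50 to 1.33), at 1.89-fold and a limma adjusted p of 0.0520, which passes neither limit. Between the treatments it was -0.33 (-0.48 to -0.18, limma adjusted p = 0.00463), lower with PTH and under the 2-fold limit. The call after YKL-05-093 was lost without YKL-05-093 replicate 1 (limma adjusted p = 0.844) and without replicate 2 (limma adjusted p = 0.629), while the log2 fold changes, 1.25 and 1.24, did not move. After PTH, leaving out vehicle replicate 1 gave a log2 fold change of 1.04, with the spread taken from the PTH libraries alone. Over the 15 alternatives the adjusted p of Ptgfr ran from 0.00114 to 0.844 for YKL-05-093, from 0.00375 to 0.970 for PTH and from 0.000472 to 0.550 between the treatments.

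Ptgfr was by far the most abundant prostaglandin receptor transcript. Its RPKM was 5.06 and 7.67 times that of Ptger1 in the vehicle libraries, 15.4 and 14.6 times in PTH, and 16.1 and 15.8 times in YKL-05-093. Of the other receptor genes, Ptger3 (EP3), Ptgir (the prostacyclin receptor), Ptgdr and Gpr44 (prostaglandin D2) and Tbxa2r (thromboxane) did not pass the filter. Ptgir was at 0.119 to 0.306 RPKM, and Ptgdr had no read. The summed RPKM of 4 endothelial markers ran the same way as Ptgfr, at 0.724 to 1.14 in vehicle, 1.14 to 1.44 in PTH and 1.95 to 2.17 in YKL-05-093, with 1 of 4 (Kdr) averaging at least 0.5 RPKM and Cdh5 at 0 in every library. Kdr set this order, with means of 0.529, 0.936 and 1.58 RPKM in vehicle, PTH and YKL-05-093. Tek (0.347, 0.253 and 0.426) and Pecam1 (0.0540, 0.0995 and 0.0558) did not follow it. The sum of 3 platelet markers was 2.80 to 3.05 in vehicle, 3.55 to 3.81 in PTH and 3.53 to 3.91 in YKL-05-093. Itga2b made up most of it, with means of 2.44, 3.12 and 3.28 RPKM in vehicle, PTH and YKL-05-093. Gp1ba was lower in both treatments than in vehicle (0.209, 0.0952 and 0.149), and Pf4 had 1 to 6 reads per library. The sum of 5 leukocyte markers was 4.00 to 4.87 over all libraries, most of it Cd68 (3.69 to 4.42). The part of these markers in the results was not tested. In bulk RNA, fewer cells of a type and less RNA per cell cannot be told apart.

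Between the treatments, 5 of the 18 genes had an adjusted p under 0.05 at changes under 2-fold, where 9.97% of all tested genes had an adjusted p under 0.05 at any fold. They are named here after their values were seen. Besides Ptgfr these were Pla2g16, Cbr1, Anxa1 and S100a10. Pla2g16, a phospholipase A, was at 7.70 and 11.2 RPKM in vehicle, 6.34 and 5.56 in PTH, and 9.66 and 8.64 in YKL-05-093. Both PTH libraries were the lowest, and PTH against YKL-05-093 gave a log2 fold change of -0.61 (SE 0.08, limma adjusted p = 0.000107), while PTH against vehicle gave -0.64 (SE 0.21, limma adjusted p = 0.248). Anxa1, which encodes annexin A1, was lower with PTH than with YKL-05-093 by a log2 difference of -0.28 (limma adjusted p = 0.0194), Cbr1 by -0.26 (limma adjusted p = 0.0286), and S100a10, the partner of annexin A2, was higher by 0.33 (limma adjusted p = 0.00670). None of these held under all 15 alternatives, where the highest adjusted p was 0.306 for Pla2g16, 0.735 for Anxa1, 0.695 for Cbr1 and 0.756 for S100a10.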

How the data were processed

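The authors prepared ribosomal RNA-depleted, strand-keeping libraries, mapped reads to mm10/GRCm38 with STAR, counted them per gene with HTSeq on an Ensembl annotation, and deposited RPKM values, which carry no scaling factor between libraries. CASAVA 1.7 is named in the submitters' processing notes. The strand setting of the counting and the gene lengths are not given in the sources used here. The 6 single-library files equal the columns of the series table.

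Reads behind each RPKM were recovered from the steps between values and add up to 99.7% of the totals. limma 3.58.1 (R 4.3.3) was run on log2(RPKM + 0.1) for the 14264 genes that reached 0.5 RPKM in 2 or more of the 6 libraries, without genes that had no read in the 4 libraries compared, with the prior variance trended on mean log2(reads + 0.5), a separate fit of 2 against 2 per comparison, and Benjamini-Hochberg adjustment over all tested genes. Fold changes and their errors are on this log scale, which understates changes of low genes. Called genes had an adjusted p-value under 0.05 and a log2 fold change beyond 1. The script was tested on simulated data. The study's own edgeR test was not repeated, because RPKM values were deposited, and voom on the recovered reads was an alternative.

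For a gene of 2000 bases, 3 reads equal 0.0536 to 0.0857 RPKM. Intervals on reads (95%, exact Poisson; exact conditional for ratios) and floors cover counting error only. Replicate numbers were not taken to pair libraries. The members, the lists and the test were chosen with earlier results of these data known. All members were named, with the called genes of the wider pathway and the highest gene of each role. Genes of like profile were to be named for members spanning at least 1 on the log2 scale, and 0 members did. Positions and overlaps come from GENCODE M21 (GRCm38), and promoters from RefSeq. Alternatives changed the pseudocount, filter, scaling, spread model, fit, block, thresholds and libraries.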

Additional observations from a re-analysis of the deposited data

How the results depend on the processing

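The number of the 8 tested genes called stayed at 0 in each comparison under all 17 alternatives, including voom on the recovered reads. The largest log2 fold change of these genes was 0.51 as reported (Ptgis after YKL-05-093). Over the alternatives it was -0.75 (Ptger1 after PTH, without vehicle replicate 2). The fold limit alone therefore fixed the count at 0, except in the setting with the adjusted p alone. This count does not show that the adjusted p of these genes was steady. Over all genes the calls moved more. For PTH against vehicle, 272 genes became 440 with the replicate number as a block, 0 with no filter on low values, 130 with no trend of the spread and 160 with the spread trended on the mean value. For YKL-05-093 against vehicle, 95 became 173 in 1 fit of all 6 libraries, 215 with the replicate block, 57 with a filter of 0.1 RPKM, 0 with no filter, 29 with no trend, 55 with a pseudocount of 1, 6 with the trend on the mean value and 34 with genes without a read kept, the last chosen after seeing the data. For PTH against YKL-05-093, 172 became 102 in 1 fit, 51 with no trend, 98 with a pseudocount of 1, 1421 at the adjusted p alone and 542 at 1.5-fold. Leaving out 1 library gave 14 to 669, 11 to 321 and 0 to 155 calls in the 3 comparisons. The lowest counts came from leaving out a treated library, and the highest counts against vehicle from leaving out vehicle replicate 2.

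The call of Ptgfr after YKL-05-093 (1 gene of the pathway list) was lost, leaving 0, with a filter of 0.1 RPKM, no filter, no trend, a pseudocount of 1, the trend on the mean value and genes without a read kept, with limma adjusted p from 0.0520 to 0.186. Leaving out 1 library gave 0 to 1 called pathway genes for each comparison with vehicle. Between the treatments 0 pathway genes became 5 at the adjusted p alone and 1 (Pla2g16) at 1.5-fold. The cause of these moves was not tested. Deviations of libraries with the same replicate number showed little correlation over the tested genes (-0.03, -0.05 and -0.05). With duplicate libraries this cannot show whether the cultures were set up in pairs. With the block Ptgs1 and Ptgis had limma adjusted p of 0.0181 and 0.0179 between the treatments, under 2-fold (0.0181 to 0.458 and 0.0179 to 0.903 over the alternatives). Depth limits Ptges and Ptger2, with 38 and 1 reads in all.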
